A study of Mus musculus with 4 samples.

Results

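The Ms4a genes expressed by myeloid cells were described in monocytes and macrophages of mouse melanomas. The members were the genes of the deposited table with the symbols Ms4a4a, Ms4a4c, Ms4a6b, Ms4a6c, Ms4a6d, Ms4a7, Ms4a8a and Ms4a14. All 8 were found among 12584 genes, and 11 symbols of the table start with Ms4a. All 8 members held at least 20 unique molecular identifiers (UMIs, counted transcript molecules) in each of the 16 comparisons of monocytes, macrophages or both. No member was lost there to the filter on low counts. Comparisons within a single class had no such filter.

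The data were single-cell counts of live CD45+ cells from tumours of the YUMM1.7-OVA RTT line. It is a Braf V600E, Cdkn2a-/- mouse melanoma that carries ovalbumin and was selected for resistance to targeted therapy. All tumours grew in Rag2-/- mice, which make no T or B cells of their own, and all mice received OT-1 T cells, which recognise an ovalbumin peptide, by adoptive cell transfer (ACT) on day 7. Tumours were taken on day 10, which is 72 hours after ACT, and 3 tumours were pooled for each library. The CTRL tumours expressed mCherry and a puromycin resistance gene from empty vectors. The IRF3/7 tumours expressed IRF3 with mCherry and IRF7 with the puromycin resistance gene, driven by an SFFV promoter in a line sorted in bulk. The COX2i mice carried the mCherry line and were given the cyclooxygenase-2 inhibitor celecoxib by mouth every day, and the COX2i + 5-AZA mice were also given the DNA methyltransferase inhibitor 5-azacitidine by injection. Mice were 6 to 12 weeks old, per the study's methods. Each group had 1 library, so all differences below are differences between libraries, with no replicate check and no test. All intervals are 95% intervals that cover counting error only.

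The MS4A proteins span the membrane several times, and their ends lie inside the cell. The best known members are MS4A1, which is the B cell antigen CD20, and MS4A2, the beta chain of the high-affinity IgE receptor. In myeloid cells, MS4A4A marks macrophages and works with the beta-glucan receptor Dectin-1, and variants of the human MS4A cluster are associated with soluble TREM2, the shed form of a lipid receptor of macrophages and microglia. MS4A7 is used as a marker of macrophages, in particular of those that come from bone marrow. Mouse Ms4a4b is known from T cells and natural killer (NK) cells.

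The members lie in 1 cluster on chromosome 19. In the GENCODE annotation of GRCm38 they span 537 kb, from base 11067471 to base 11604849, with 4 members on each strand and 14 protein-coding Ms4a genes in the span. From left to right they are Ms4a8a (chr19:11067471-11081102), Ms4a14 (chr19:11301249-11314454), Ms4a7 (chr19:11321039-11336146), Ms4a4a (chr19:11375523-11392790), Ms4a4c (chr19:11404770-11427246), Ms4a6c (chr19:11469366-11482192), Ms4a6b (chr19:11516512-11531256) and Ms4a6d (chr19:11586604-11604849). Ms4a14 and Ms4a7 are neighbours on the minus strand, and Ms4a6c and Ms4a6b lie side by side on the plus strand among the members.

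RefSeq promoter sequences (GRCm38.p6, 250 bases before to 50 after each start site, 300 bases in all) were found for 7 of the 8 members, as 8 promoters. They were searched on both strands for an ISRE-like motif bound by interferon regulatory factors (GAAA, any 2 bases, GAAA), a GAS-like motif bound by STAT factors (TTC, any 3 bases, GAA) and the ETS core GAGGAA of the PU.1 type. No promoter of a member held the ISRE-like motif, which was in 3.44% of 32851 promoters, or the GAS-like motif, which was in 8.3%. The searched promoters of Ms4a4c and Ms4a6b lie inside these genes as GENCODE bounds them, from bases 11404770 and 11516512. The sequence before those upstream starts was not searched. The ETS core was found in the promoters of 3 members and in 28.3% of all promoters. Those of Ms4a4c, whose level differed most between libraries, and of the neighbours Ms4a7 and Ms4a14 are given 5′ to 3′ on the strand of the gene, with the ETS core in capitals (in Ms4a14 it lies on the opposite strand and reads TTCCTC). The core starts 61 bases before the start site of Ms4a4c, 84 bases before that of Ms4a14 and 43 bases after that of Ms4a7. The other Ms4a7 promoter, chr19:11334646-11334945, held none of the motifs searched and is not printed.
Ms4a4c, chr19:11407411-11407710, plus strand: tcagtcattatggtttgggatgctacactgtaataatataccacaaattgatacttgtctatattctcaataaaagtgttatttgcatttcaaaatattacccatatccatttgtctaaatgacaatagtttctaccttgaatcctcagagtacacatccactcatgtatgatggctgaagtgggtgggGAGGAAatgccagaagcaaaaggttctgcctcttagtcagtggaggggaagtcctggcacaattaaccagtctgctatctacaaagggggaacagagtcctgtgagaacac
Ms4a7, chr19:11336097-11336396, minus strand: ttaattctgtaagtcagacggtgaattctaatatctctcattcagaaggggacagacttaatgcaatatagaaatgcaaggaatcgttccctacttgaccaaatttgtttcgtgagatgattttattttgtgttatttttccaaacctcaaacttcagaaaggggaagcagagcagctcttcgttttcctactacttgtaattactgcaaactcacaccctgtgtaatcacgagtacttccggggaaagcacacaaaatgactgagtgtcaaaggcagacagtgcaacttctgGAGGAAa
Ms4a14, chr19:11314405-11314704, minus strand: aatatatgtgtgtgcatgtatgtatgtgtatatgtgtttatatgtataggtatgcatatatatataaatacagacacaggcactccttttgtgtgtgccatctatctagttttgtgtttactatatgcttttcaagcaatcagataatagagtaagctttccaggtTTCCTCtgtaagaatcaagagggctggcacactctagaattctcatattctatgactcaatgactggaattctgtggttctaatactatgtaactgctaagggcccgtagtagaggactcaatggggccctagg

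The promoters of Ms4a6c and Ms4a6b, the members with the most similar levels across cell classes, shared an identical run of 48 bases, which is in capitals in both. In Ms4a6c the run lies 49 to 2 bases before the start site, and in Ms4a6b 118 to 71 bases before it. No other pair of members shared more than 10 bases in a row between their promoters.
Ms4a6c, chr19:11469118-11469417, plus strand: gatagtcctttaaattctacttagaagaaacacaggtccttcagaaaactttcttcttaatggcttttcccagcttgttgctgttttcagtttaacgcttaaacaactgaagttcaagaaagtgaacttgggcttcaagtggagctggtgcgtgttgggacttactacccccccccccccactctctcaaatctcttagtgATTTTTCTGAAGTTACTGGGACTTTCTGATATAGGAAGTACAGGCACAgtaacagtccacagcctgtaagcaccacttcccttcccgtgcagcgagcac
Ms4a6b, chr19:11518309-11518608, plus strand: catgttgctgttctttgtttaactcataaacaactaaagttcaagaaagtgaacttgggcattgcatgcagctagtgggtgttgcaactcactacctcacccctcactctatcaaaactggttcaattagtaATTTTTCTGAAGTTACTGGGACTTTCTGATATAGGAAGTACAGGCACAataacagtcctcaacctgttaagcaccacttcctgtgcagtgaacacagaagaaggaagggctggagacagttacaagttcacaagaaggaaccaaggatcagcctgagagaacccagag

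The assay read each gene through designed probes, and near-identical copies can share them. The longest identical stretch between transcripts was 127 bases, between Ms4a4c and Ms4a4b, and 15.7% of the 25-base words of the shorter transcript were in both. Ms4a6c and Ms4a6b shared 96 bases in a row outside their coding sequence and 18.7% of such words, and Ms4a6b and Ms4a6d shared 81 bases. The transcripts of Ms4a7, Ms4a8a, Ms4a14 and Ms4a4a shared no 25-base word with any other Ms4a transcript compared. Which bases the probes covered was not checked, so the levels of Ms4a4c, Ms4a6b, Ms4a6c and Ms4a6d are uncertain with respect to their copies. Probes also differ between genes, so levels are compared between samples for 1 gene and never between genes. The stretch shared by Ms4a4c and Ms4a4b, with 10 bases on either side, is coding in both genes and lies over 3 exons, with the identical bases in capitals.
Ms4a4c, exons between chr19:11417698 and chr19:11421276: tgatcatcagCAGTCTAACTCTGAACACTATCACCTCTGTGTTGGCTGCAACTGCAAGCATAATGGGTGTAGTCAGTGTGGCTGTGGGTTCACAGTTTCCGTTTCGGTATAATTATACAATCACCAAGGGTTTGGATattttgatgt
Ms4a4b, exons between chr19:11457851 and chr19:11461275: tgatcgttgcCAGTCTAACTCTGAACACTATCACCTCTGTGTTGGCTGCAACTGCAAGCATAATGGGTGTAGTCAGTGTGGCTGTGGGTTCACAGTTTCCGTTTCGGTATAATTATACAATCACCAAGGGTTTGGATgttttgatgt

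The authors' classes gave 9977 monocytes (Infl_Mono, Monocyte_1 and Monocyte_3) and 18851 macrophages (TAM_C1q, TAM_Spp1, TAM_cycling, TAM_H2Ab1, Ctsk_Macro and Macro) among 34447 cells. Median UMIs per cell ranged from 3168 in IRF3/7 to 7502 in COX2i. Monocytes numbered 139 in CTRL, 4596 in IRF3/7, 558 in COX2i and 4684 in COX2i + 5-AZA, and macrophages 7475, 439, 6820 and 4117 in the same order. Of the IRF3/7 macrophages, 385 were TAM_H2Ab1. Irf7, the targeted gene, was at 4964 CPM (the count of UMIs scaled to an equal total in every set of cells compared) over all IRF3/7 cells against 62.1 in CTRL, and Irf3 at 138 against 41.6. Both were highest in the class named Myofibrobl of IRF3/7, at 14909.5 and 584 CPM, and over monocytes and macrophages Irf3 was at 44.6 CPM in IRF3/7 and 43.0 in CTRL. The CTRL monocytes carried both monocyte and macrophage markers. The summed level of 8 macrophage markers, none of which was at 0, was 39617 CPM in CTRL monocytes, against 9788 in IRF3/7, 10188 in COX2i and 9093 in COX2i + 5-AZA monocytes and 25369 to 45648 in macrophages. It was 50867 CPM in the 93 CTRL Infl_Mono cells, above the CTRL macrophages. Of the 8 markers, Apoe alone was at 26925 CPM in CTRL monocytes. Apoe also differed between libraries within macrophages, at 28713.5 CPM in CTRL and 8820 in COX2i. The summed level of the 5 monocyte markers in the table was 5326 to 15432 CPM in monocytes and 747 to 1766 in macrophages. In CTRL it was 5326 CPM in monocytes and 864 in macrophages. When cells were clustered again without the Ms4a and interferon genes, 50 of these 93 cells fell with macrophages, and 366 of the 385 IRF3/7 TAM_H2Ab1 cells fell with monocytes. The libraries were not integrated for these rebuilt clusters, which can therefore follow library as well as cell type. The macrophage markers summed to 38201 CPM in IRF3/7 TAM_H2Ab1 and 9676 in IRF3/7 Infl_Mono. Several values that involve CTRL monocytes or IRF3/7 macrophages rest on the CTRL Infl_Mono or IRF3/7 TAM_H2Ab1 cells, as given beside them. No whole cell barcode was in more than 1 library, but 10018 cells shared their 16-base droplet barcode with a cell of another library. Without them no member's log2 ratio changed sign and the largest change was 0.14.

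Monocytes and macrophages were first compared within each library, which asks which Ms4a genes go with each side. Ms4a4c and Ms4a8a were higher in monocytes in all 4 libraries, and Ms4a7 and Ms4a14 were lower in monocytes past 2-fold in the 3 libraries other than CTRL. Ms4a6b, Ms4a6c and Ms4a6d differed by less than 2-fold in each of the 4 libraries, and Ms4a4a was higher in monocytes in CTRL and IRF3/7 and lower in the other 2, of which the CTRL direction turned without Infl_Mono. The classes were made from expression and may have used these genes, so these differences are descriptions. A gene was called at a log2 ratio of at least 1 in size, that is 2-fold, among genes that held 20 or more UMIs over both sides.

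**Figure D1:**
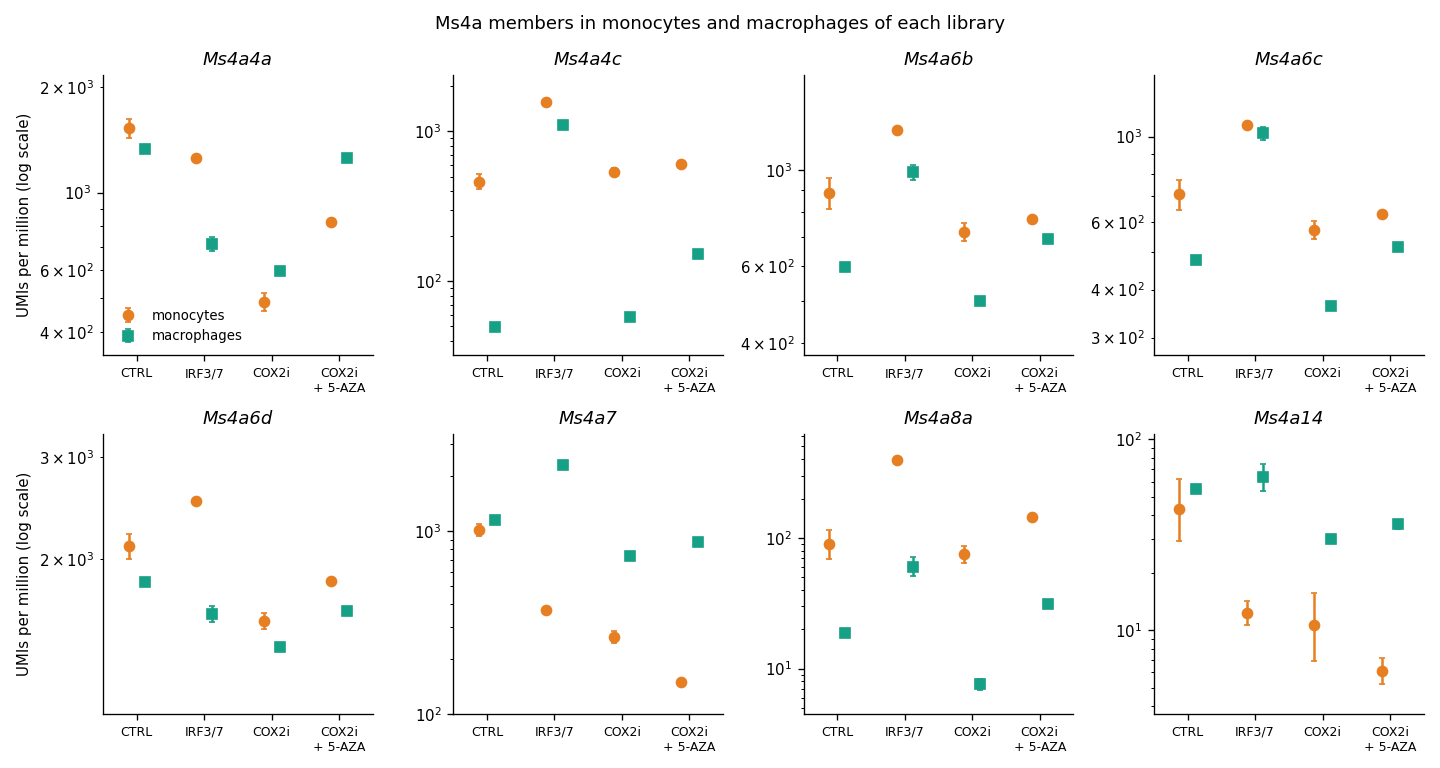
Levels of the 8 members (CPM, log axis) in the monocytes and the macrophages of each of the 4 libraries, with exact Poisson 95% intervals. Ms4a4c and Ms4a8a lie higher in monocytes in each library, and Ms4a7 lies highest in the IRF3/7 macrophages, at 2308.

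Ms4a4c is a gene of the cluster that mouse myeloid cells are known to express more under interferon. Its level was 463 CPM in CTRL, 1571 in IRF3/7, 536 in COX2i and 602 in COX2i + 5-AZA monocytes. In macrophages it was 49.9 CPM in CTRL, 1101 in IRF3/7, 57.7 in COX2i and 152 in COX2i + 5-AZA. Monocytes were thus higher in every library, but the macrophages of IRF3/7 were above the monocytes of the other 3 libraries. Without TAM_H2Ab1 they were at 559 CPM, which is below the COX2i + 5-AZA monocytes. The log2 ratio of monocytes over macrophages was 3.21 (3.04 to 3.38) in CTRL, 3.22 (3.12 to 3.31) in COX2i and 1.98 (1.94 to 2.03) in COX2i + 5-AZA. In IRF3/7 it was 0.51 (0.45 to 0.57), and it was 1.49 when TAM_H2Ab1 was left out of the macrophages and 1.41 with the rebuilt clusters. Without Infl_Mono the IRF3/7 ratio was 0.25.

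Ms4a8a, which has been described on macrophages in tumours, had the same direction at lower counts. Monocytes were at 89.5 CPM in CTRL, 397 in IRF3/7, 75.1 in COX2i and 145 in COX2i + 5-AZA, from 62, 6127, 177 and 3713 UMIs. Macrophages were at 18.7, 60.3, 7.59 and 30.9 CPM in the same order, all below the monocytes of every library. The log2 ratio was 2.26 (1.87 to 2.63) in CTRL, 2.72 (2.48 to 2.97) in IRF3/7, 3.31 (3.05 to 3.56) in COX2i and 2.23 (2.14 to 2.32) in COX2i + 5-AZA. The CTRL value was 3.74 with the rebuilt clusters, and the IRF3/7 value was 1.65 without Infl_Mono.

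Ms4a7 had the opposite direction. Macrophages were at 1161 CPM in CTRL, 2308 in IRF3/7, 732 in COX2i and 870.5 in COX2i + 5-AZA, and monocytes at 1016, 372, 265 and 149 CPM. The CTRL monocytes, which carried the macrophage markers given above, were the only monocytes within the range of the macrophages, and the part of those markers in this value was not tested. The log2 ratio of monocytes over macrophages was -2.63 (-2.69 to -2.58) in IRF3/7, -1.47 (-1.58 to -1.35) in COX2i and -2.55 (-2.59 to -2.50) in COX2i + 5-AZA. In CTRL it was -0.19 (-0.30 to -0.09), and it was -2.37 without Infl_Mono and -2.61 with the rebuilt clusters. With the rebuilt clusters, which held 78 IRF3/7 macrophages, the IRF3/7 value was -0.75.

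Ms4a14, the neighbour of Ms4a7, followed it at lower counts. Macrophages were at 55.0 CPM in CTRL, 63.6 in IRF3/7, 30.2 in COX2i and 35.8 in COX2i + 5-AZA, and monocytes at 43.3, 12.4, 10.6 and 6.13 CPM from 30, 191, 25 and 157 UMIs. The log2 ratio was -2.36 (-2.68 to -2.05) in IRF3/7, -1.51 (-2.14 to -0.94) in COX2i and -2.54 (-2.79 to -2.31) in COX2i + 5-AZA. The IRF3/7 value was -3.94 without Infl_Mono and -1.07 with the rebuilt clusters, and the COX2i value -2.72 and -2.83. In CTRL it was -0.35 (-0.92 to 0.17), an interval that includes 0, and -1.94 without Infl_Mono and -3.12 with the rebuilt clusters. In cells with more than 2000 genes the COX2i value was -0.92, and the CTRL values were 0.17 for Ms4a14 and 0.16 for Ms4a7.

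Ms4a4a, the partner of Dectin-1 named above, was at 1525 CPM in CTRL, 1253 in IRF3/7, 487 in COX2i and 824 in COX2i + 5-AZA monocytes, and at 1330.5, 714, 597 and 1258 CPM in macrophages. Monocytes were higher in CTRL, by a log2 ratio of 0.20 (0.11 to 0.28), and in IRF3/7, by 0.81 (0.74 to 0.88). The CTRL value was -0.72 without Infl_Mono, whose 93 cells carried the macrophage markers, and the IRF3/7 value was 0.09 with the rebuilt clusters. Monocytes were lower in COX2i, at -0.29 (-0.38 to -0.21), and in COX2i + 5-AZA, at -0.61 (-0.63 to -0.59). These differences were below 2-fold, but the IRF3/7 value was 1.11 when libraries were scaled by the median of gene ratios and 1.02 without TAM_H2Ab1.

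The 3 Ms4a6 members also stayed below 2-fold between the sides. Ms4a6d was at 1563 to 2517 CPM in monocytes and 1406 to 1826 in macrophages, with log2 ratios of 0.15 to 0.65, the highest in IRF3/7. Ms4a6b was at 721 to 1241 CPM in monocytes and 499 to 989.9 in macrophages, with log2 ratios of 0.15 to 0.57. Ms4a6c was at 571 to 1072 CPM in monocytes and 363 to 1019 in macrophages, with log2 ratios of 0.07 to 0.65. In these values each of the 3 was higher in monocytes in all 4 libraries, by less than 2-fold. The direction turned for Ms4a6d in CTRL, at -0.28 with the rebuilt clusters, and for Ms4a6c in IRF3/7, at -0.02 after each cell was thinned to 1500 UMIs. Ms4a6d in IRF3/7 was at 1.00 without TAM_H2Ab1.

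Read against all genes, the members called higher in monocytes were 2 of 8 in CTRL, where 12.3% of 11585 genes were called higher, 1 of 8 in IRF3/7 (7.26% of 10310 genes), 2 of 8 in COX2i (7.56% of 11510) and 2 of 8 in COX2i + 5-AZA (4.08% of 11556). The members called lower in monocytes were 0 of 8 in CTRL, where 11.7% of genes were called lower, and 2 of 8 in each of IRF3/7 (20.2%), COX2i (14.2%) and COX2i + 5-AZA (14.6%). The IRF3/7 count higher was 4 without TAM_H2Ab1, and 2 with the rebuilt clusters or when scaled by the median of gene ratios. The CTRL count lower was 2 without Infl_Mono or with the rebuilt clusters, which also left 1 lower in IRF3/7. The COX2i count lower was 1 in cells with more than 2000 genes. The median log2 ratio of the members was 0.38, 0.42, 0.34 and 0.16 in CTRL, IRF3/7, COX2i and COX2i + 5-AZA, and the median of all genes tested was -0.19, -0.30, -0.24 and -0.25.

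**Figure D2:**
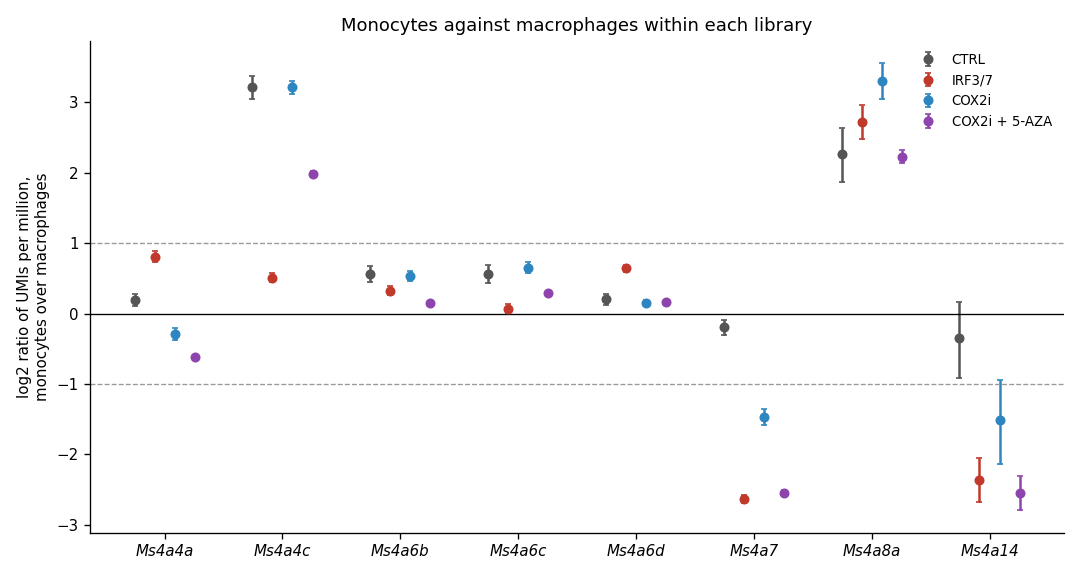
Log2 ratio of the level in monocytes over that in macrophages for each member within each of the 4 libraries, with exact 95% counting intervals and lines at 2-fold. Ms4a4c and Ms4a8a lie above 0 and Ms4a7 and Ms4a14 below it in all 4 libraries, with the CTRL values of Ms4a7 (-0.19) and Ms4a14 (-0.35) nearest to 0 and above it (0.16 and 0.17) in cells with more than 2000 genes.

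The levels were then followed over the 9 single classes, which gave 23 profiles of a class in a library with at least 50 cells. Between the highest and lowest of these profiles, which can come from different libraries, Ms4a4c spread by 224-fold (154 to 339), Ms4a7 by 46.0-fold (32.6 to 67.4), Ms4a4a by 14.4-fold (12.5 to 16.5) and Ms4a6d by 4.23-fold (3.97 to 4.51). The lowest profile of Ms4a8a held 3 UMIs, so that its ratio of 221 had a counting interval of 75.5 to 1070. The lowest profile of Ms4a14 held 1 UMI, and its ratio of 46.3 had an interval of 8.31 to 1831. Ms4a4c was highest in IRF3/7 Infl_Mono at 1583 CPM and lowest in CTRL Ctsk_Macro, the macrophage class named for the protease gene Ctsk, at 7.08 CPM.

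**Figure D3:**
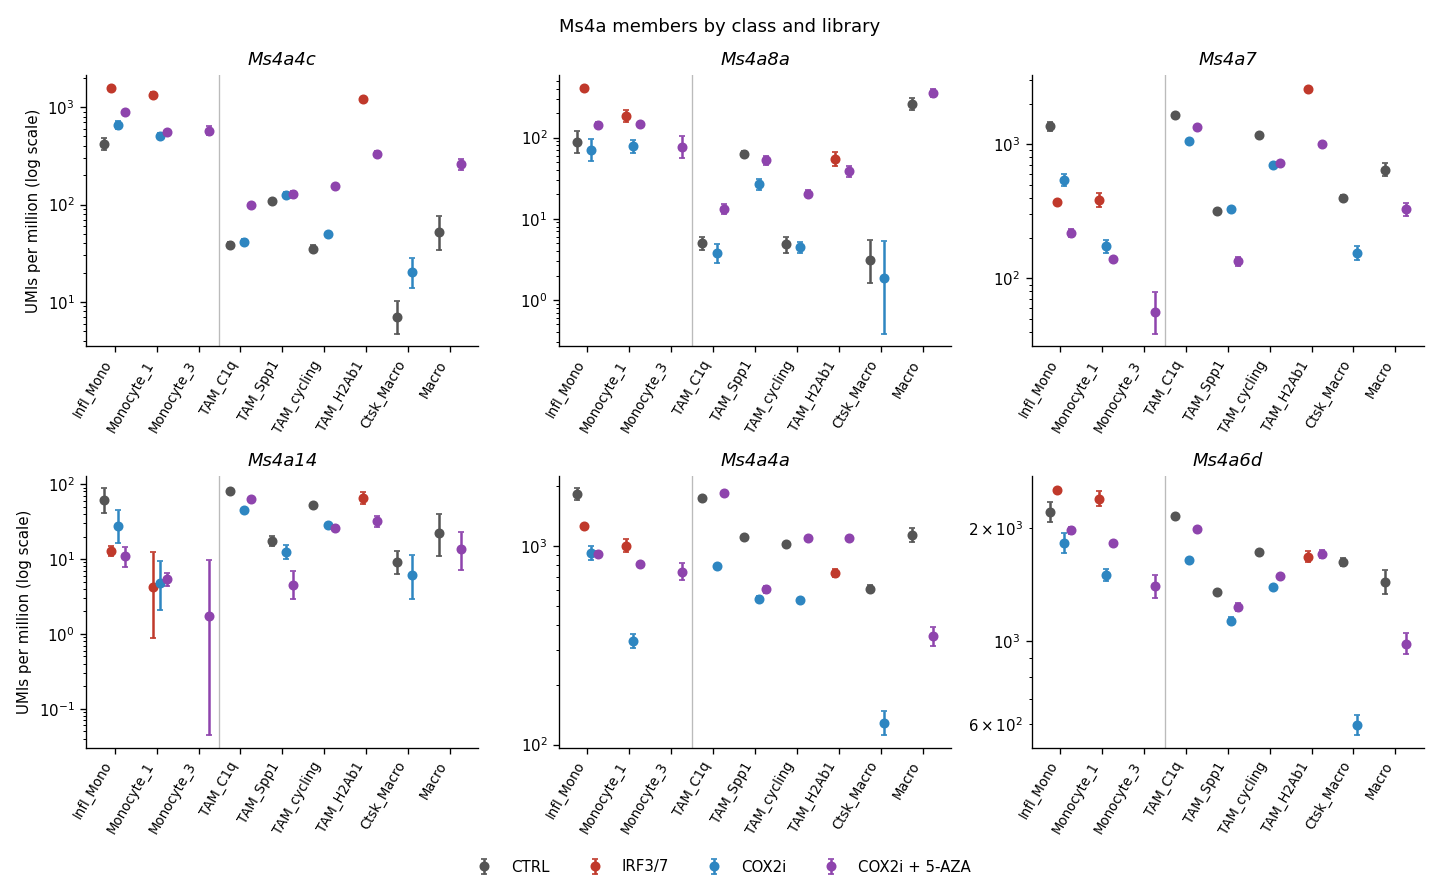
Levels of Ms4a4c, Ms4a8a, Ms4a7, Ms4a14, Ms4a4a and Ms4a6d (CPM, log axis) in the monocyte and macrophage classes that hold at least 50 cells in a library, 1 point per class and library. Ms4a7 runs from 56.2 in Monocyte_3 to 2587 in IRF3/7 TAM_H2Ab1, and Ms4a6d stays between 597 and 2524.

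Within macrophages, Ms4a7 was highest in the IRF3/7 TAM_H2Ab1 class, named for a class II gene, at 2587 CPM. In TAM_C1q, named for a complement gene, it was at 1659 CPM in CTRL, 1336 in COX2i + 5-AZA and 1054 in COX2i, and in CTRL TAM_cycling at 1178 CPM. The level in TAM_Spp1, named for the osteopontin gene, was 318 CPM in CTRL, 327 in COX2i and 134 in COX2i + 5-AZA. Ms4a7 was therefore lower in TAM_Spp1 than in TAM_C1q of the same library in each of the 3 libraries where both had 50 cells. Ms4a14 had the same order of these classes, with 81.4, 45.2 and 63.5 CPM in TAM_C1q of CTRL, COX2i and COX2i + 5-AZA and 17.5, 12.6 and 4.57 CPM in TAM_Spp1. Ms4a4c had the opposite order in the same libraries, with 38.5, 41.1 and 98.3 CPM in TAM_C1q and 108, 125 and 127 CPM in TAM_Spp1.

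Ms4a8a was highest among macrophage classes in Macro, at 258 CPM in CTRL and 353 CPM in COX2i + 5-AZA. The class held 73 and 105 cells there. The next macrophage value was 63.5 CPM in CTRL TAM_Spp1, and TAM_C1q was at 3.77 to 13.1 CPM. Among monocytes Ms4a8a was at 407 CPM in IRF3/7 Infl_Mono and 185 CPM in IRF3/7 Monocyte_1, and at 70.4 to 147 CPM in the classes of the other libraries. Between the monocyte classes with at least 50 cells in 1 library Ms4a4c ran from 1331 to 1583 CPM in IRF3/7, from 501 to 659.9 CPM in COX2i and from 550.3 to 881 CPM in COX2i + 5-AZA.

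Ms4a7 separated the monocyte classes of COX2i + 5-AZA, with 219 CPM in Infl_Mono, 139 in Monocyte_1 and 56.2 in Monocyte_3. In COX2i it was 542 CPM in Infl_Mono and 173 in Monocyte_1, and in IRF3/7 it was 371 and 384. The CTRL Infl_Mono value was 1357 CPM. Ms4a4a was lowest in COX2i Ctsk_Macro at 128 CPM and highest in COX2i + 5-AZA TAM_C1q at 1846 CPM. COX2i Ctsk_Macro was also the lowest class for Ms4a6b, Ms4a6c and Ms4a6d, at 110.0, 122 and 597 CPM.

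The share of cells with a UMI was read after each cell was thinned to 1500 UMIs, since the libraries differed in depth. Median UMIs per cell before thinning were 3044 to 4801.5 in monocytes, 4683 to 9446 in macrophages and 11036 to 20862.5 in the class named Myofibrobl, which should lack myeloid genes. Cells with fewer than 1500 UMIs were left out, namely 98 in CTRL, 412 in IRF3/7, 110 in COX2i and 309 in COX2i + 5-AZA. Ms4a4c was found in 41.7% of CTRL (70.5% unthinned), 86.3% of IRF3/7 (94.996%), 51.0% of COX2i (75.8%) and 56.4% of COX2i + 5-AZA (84.4%) monocytes. In macrophages it was found in 8.10% (21.9% unthinned), 75.0% (93.2%), 8.52% (28.6%) and 18.0% (52.6%) of cells. The share in Myofibrobl was 0.90% to 6.43%, with IRF3/7 the highest. Ms4a7 was found in 59.6% of CTRL (77.1% unthinned), 83.9% of IRF3/7 (92.5%), 52.3% of COX2i (78.9%) and 52.6% of COX2i + 5-AZA (75.8%) macrophages. In monocytes it was in 40.3% (57.6%), 28.4% (37.8%), 18.3% (27.6%) and 12.6% (27.2%), against 2.34% to 7.104% in Myofibrobl. Ms4a8a was in 13.7%, 36.0%, 10.3% and 18.4% of monocytes and in 1.30% to 4.67% of macrophages, all thinned. Ms4a6d was in 81.4% to 91.6% of thinned cells on both sides. In Myofibrobl Ms4a8a was at 0.94 to 5.35 CPM and Ms4a6d at 46.6 to 130 CPM, and their shares of cells there are not reported here.

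Both Ms4a4c and Ms4a7 were seen in the same thinned cell in 65.7% of IRF3/7 macrophages, against 4.10% in CTRL, 3.26% in COX2i and 8.62% in COX2i + 5-AZA macrophages. Among CTRL macrophages 55.5% had Ms4a7 alone, and among IRF3/7 monocytes 61.2% had Ms4a4c alone and 25.05% had both. In TAM_H2Ab1, 70.7% of IRF3/7 and 20.8% of COX2i + 5-AZA cells had both. These IRF3/7 macrophages carried macrophage markers at 36056 CPM and monocyte markers at 1766 CPM, which is within the range of the other macrophages for the first and above it, from 747 to 864 CPM, for the second.

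The libraries were next compared with each other, over monocytes and macrophages together and within each side. Monocytes and macrophages together differ in class mix between libraries, and the comparison within each side shows what is seen at a given side. The first 3 comparisons share the CTRL library. In IRF3/7 against CTRL the median log2 ratio of genes with at least 20 UMIs on both sides was -0.46, so values above it are higher relative to the median gene. It was -0.16 for COX2i + 5-AZA against CTRL, -0.19 for COX2i + 5-AZA against COX2i and 0.02 for COX2i against CTRL.

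**Figure D4:**
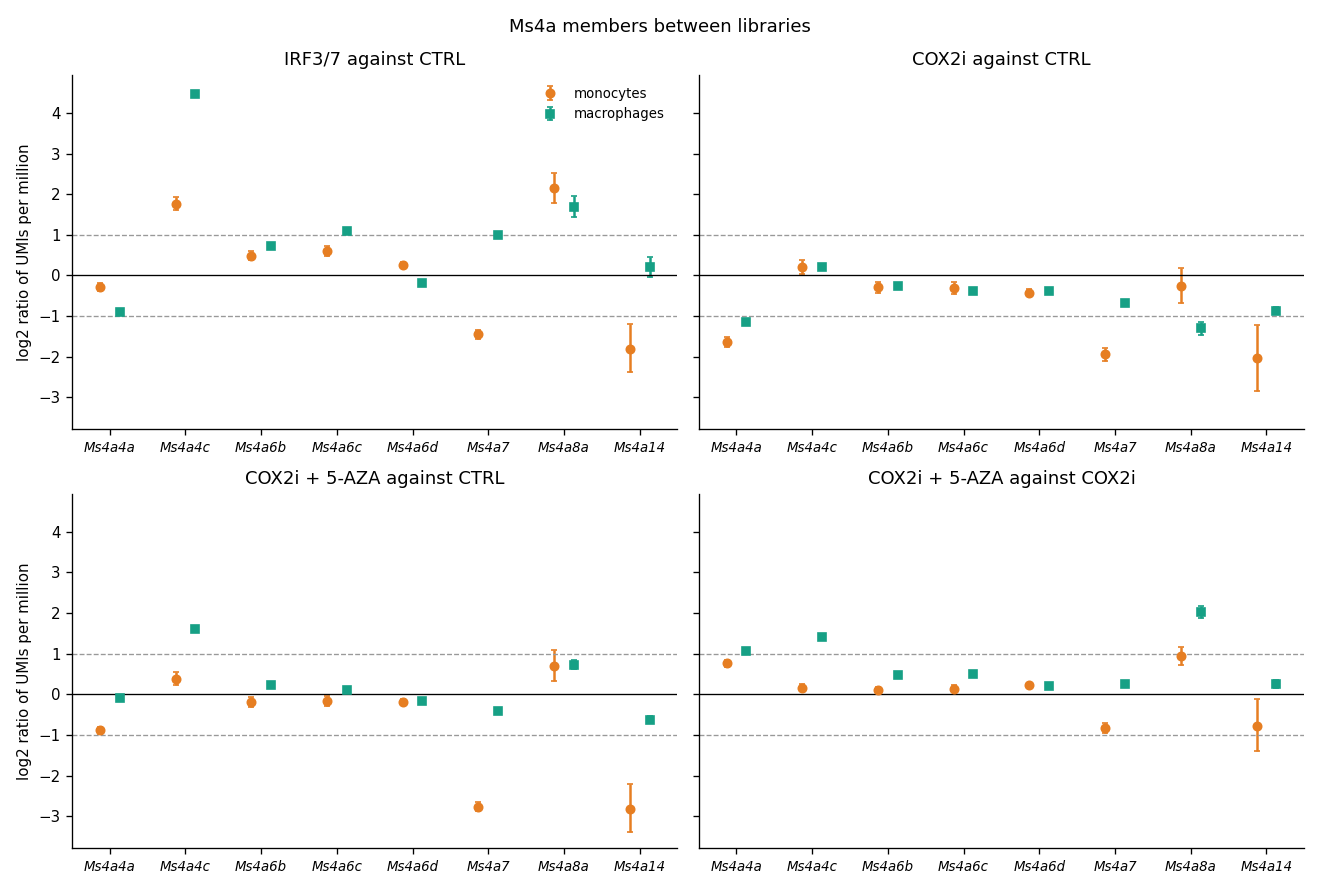
Log2 ratio of each member between libraries within monocytes and within macrophages, for the 4 comparisons, with exact 95% counting intervals. In IRF3/7 against CTRL, Ms4a4c lies at 4.46 within macrophages and 1.76 within monocytes, and Ms4a7 lies on opposite sides of 0, at 0.99 and -1.45.

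In IRF3/7 against CTRL, Ms4a4c had the highest ratio of the members over both sides. Its level was 1507 against 55.2 CPM, a log2 ratio of 4.77 (4.72 to 4.83). Within macrophages the ratio was 4.46 (4.39 to 4.54), from 1101 against 49.9 CPM, or 3.51 with the rebuilt clusters, and within monocytes 1.76 (1.60 to 1.93), from 1571 against 463 CPM. With the CTRL class mix given to both libraries, the ratio over both sides was 4.07. Ms4a8a was at 4.17 (4.07 to 4.26) over both sides, 1.69 (1.43 to 1.94) within macrophages and 2.15 (1.79 to 2.53) within monocytes. These 3 values were 2.64 with the CTRL class mix, 0.59 after thinning and 0.68 with the rebuilt clusters, the last 2 of them below 2-fold.

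Ms4a7 differed in direction between the sides in IRF3/7 against CTRL. It was higher in IRF3/7 within macrophages, at 2308 against 1161 CPM and a log2 ratio of 0.99 (0.95 to 1.03), and lower within monocytes, at 372 against 1016 CPM and -1.45 (-1.56 to -1.34). Without Infl_Mono, which left 44 and 2 cells of the other classes in CTRL, the monocyte ratio was 0.75, and it was 1.65 with the rebuilt clusters. The macrophage ratio rested on TAM_H2Ab1, since it was -0.48 without that class and -0.21 with the rebuilt clusters. Ms4a14 was at -1.81 (-2.37 to -1.20) within monocytes, 1.50 with the rebuilt clusters and -0.96 by the mean over cells, and at 0.21 (-0.04 to 0.44) within macrophages, -0.55 with the rebuilt clusters.

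Of the Ms4a6 members, Ms4a6c was higher in IRF3/7 by a log2 ratio of 1.15 over both sides, 1.10 (1.04 to 1.16) within macrophages and 0.60 (0.47 to 0.73) within monocytes. Ms4a6b followed with 1.01, 0.73 and 0.49. Over both sides these fell below 2-fold with the CTRL class mix, at 0.86 and 0.69, and within macrophages they were 0.36 and 0.29 without TAM_H2Ab1. Ms4a6d was at 0.39 over both sides, -0.30 with the CTRL class mix. It was at -0.18 within macrophages, 0.04 with the rebuilt clusters, and at 0.26 within monocytes. Ms4a4a was lower in IRF3/7 within macrophages, at 714 against 1330.5 CPM and -0.90 (-0.97 to -0.83), which was -0.30 with the rebuilt clusters and -1.11 without TAM_H2Ab1. Within monocytes it was at -0.28 (-0.37 to -0.19), and at 0.33 without Infl_Mono. Over both sides it was -0.18, and 0.29 when libraries were scaled by the median of gene ratios.

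In all, 4 of 8 members were called higher in IRF3/7 over both sides, where 9.16% of 11793 genes were, and 1 of 8 lower, where 32.2% were. The member called lower was Ms4a14, at -1.51 (-1.68 to -1.35), which was 0.94 with the CTRL class mix, and with that mix 2 members were called higher and 0 lower. The median of the members was 0.70 and that of all genes -0.55. Within monocytes 4 of 8 members were called in either direction, against 21.9% of 10081 genes, and within macrophages 3 of 8, against 23.6% of 11631 genes.

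In COX2i against CTRL the members were mostly lower. Ms4a4a was called, at 592 against 1333 CPM over both sides and a log2 ratio of -1.17 (-1.19 to -1.15). It was lower in each compared class, by -1.65 within monocytes and -1.16 within macrophages, and by -0.99 in Infl_Mono, -1.14 in TAM_C1q, -1.03 in TAM_Spp1, -0.93 in TAM_cycling and -2.25 in Ctsk_Macro. Ms4a7 was at -0.67 (-0.68 to -0.65) within macrophages and -1.94 (-2.10 to -1.78) within monocytes, the second of which was -0.21 with the rebuilt clusters. Ms4a8a was at -1.30 (-1.46 to -1.14) within macrophages, -0.94 in cells with more than 2000 genes, and within monocytes its interval, -0.68 to 0.19, included 0, and the value was -1.26 with the rebuilt clusters. Ms4a4c was the member above 0 on both sides, at 0.21 within each, and its monocyte value was -0.22 without Infl_Mono.

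Over both sides 0 of 8 members were called higher in COX2i, where 1.93% of 11905 genes were, and 1 of 8 lower, where 4.7% were. The count lower was 2 after thinning, with Ms4a8a at -1.22. Within monocytes 3 of 8 were called (7.76% of 8755 genes), all lower, namely Ms4a4a, Ms4a7 and Ms4a14, of which Ms4a14 was at -2.03 or, with the rebuilt clusters, -0.58, and within macrophages 2 of 8 (6.63% of 11892), both lower. The median of the members over both sides was -0.54 and that of all genes 0.01.

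In COX2i + 5-AZA macrophages as a whole, Ms4a4c and Ms4a8a were higher than in both CTRL and COX2i. Ms4a4c was at 320.2 CPM over both sides, against 55.2 in CTRL and 75.7 in COX2i, log2 ratios of 2.54 (2.48 to 2.59) and 2.08 (2.04 to 2.13). These fell to 1.23 and 1.02 with the class mix of the library compared against. Within macrophages they were 1.61 (1.54 to 1.67) and 1.40 (1.34 to 1.46), and within monocytes 0.38 (0.22 to 0.54) and 0.17 (0.08 to 0.25), of which the value against CTRL was -0.06 without Infl_Mono. The difference was thus larger within macrophages. It was seen in TAM_cycling, at 154 against 35.2 CPM in CTRL and 50.3 in COX2i, and in TAM_C1q, at 98.3 against 38.5 and 41.1 CPM. In TAM_Spp1 the 3 libraries were at 108 to 127 CPM. Ms4a8a was at 2.03 (1.87 to 2.18) within macrophages and 0.95 (0.73 to 1.17) within monocytes against COX2i, and at 0.73 and 0.70 against CTRL. Within TAM_Spp1 it was lower than CTRL, at 52.2 against 63.5 CPM and -0.28 (-0.49 to -0.07). Against CTRL the macrophage value was 0.22 after thinning, and the monocyte value was -0.64 with the rebuilt clusters.

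Ms4a4a, which was low in COX2i, was higher in COX2i + 5-AZA macrophages than in COX2i macrophages by a log2 ratio of 1.08 (1.06 to 1.10), or 0.97 by the mean over cells, and near CTRL at -0.08 (-0.10 to -0.07). The same was seen in TAM_C1q, at 1846 CPM against 799 in COX2i and 1756 in CTRL. In TAM_Spp1 it stayed low, at 605 against 544 in COX2i and 1110 in CTRL. Ms4a7 was lower in COX2i + 5-AZA than in COX2i within monocytes, at -0.83 (-0.95 to -0.70), or -0.05 with the rebuilt clusters, and within TAM_Spp1, at -1.29 (-1.41 to -1.16), and higher within TAM_C1q, at 0.34 (0.31 to 0.37). The Ms4a6 members were 0.10 to 0.50 above COX2i within each side. Ms4a6d against CTRL over both sides was -0.10, and 0.06 when scaled by the median of gene ratios.

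Against CTRL over both sides, 2 of 8 members were called higher, where 5.65% of 12001 genes were, and 1 of 8 lower, where 11.3% were. With the CTRL class mix Ms4a4c alone was called, since Ms4a8a went from 1.91 to 0.52 and Ms4a14 from -1.15 to -0.59. Against COX2i, 2 of 8 were called higher (6.16% of 11940 genes) and 0 of 8 lower (9.77%), and Ms4a8a went from 2.86 to 1.45 with the COX2i class mix. Within monocytes 2 of 8 members were called against CTRL (17.1% of 10599 genes) and 0 of 8 against COX2i (9.45% of 10658). The 2 were Ms4a7 at -2.77 (-2.88 to -2.65) and Ms4a14 at -2.82 (-3.39 to -2.20), which were -0.26 and -0.19 with the rebuilt clusters. Within macrophages 1 of 8 was called against CTRL (13.1% of 11899) and 3 of 8 against COX2i (10.8% of 11834).

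Outside monocytes and macrophages, the type 2 dendritic cells (cDC2) also differed between libraries. Ms4a4c was at 81.9 CPM in CTRL, 1499 in IRF3/7, 161 in COX2i and 324 in COX2i + 5-AZA cDC2. Ms4a6b was at 129.99, 1207, 151 and 296 CPM, and Ms4a6c at 191, 903, 180 and 263 CPM. IRF3/7 was highest for all 3, with log2 ratios over CTRL of 4.19 (4.00 to 4.40), 3.22 (3.05 to 3.38) and 2.24 (2.09 to 2.39). The summed monocyte markers of cDC2 also differed, at 1049 CPM in CTRL, 6672 in IRF3/7, 1218 in COX2i and 2708 in COX2i + 5-AZA, and the summed cDC2 markers were 851, 546, 1021 and 579 CPM. The part of the monocyte markers in the cDC2 values was not tested. CTRL neutrophils had Ms4a7 at 858 CPM and Ms4a4a at 1283 CPM, with macrophage markers at 35217 CPM, and COX2i + 5-AZA neutrophils had 179 and 316 CPM with macrophage markers at 5034 CPM. NK cells had Ms4a4c at 279 CPM in IRF3/7, 129 in COX2i and 126 in COX2i + 5-AZA. The background class Myofibrobl had Ms4a4c at 5.09 to 34.6 CPM and Ms4a7 at 16.1 to 78.1 CPM.

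Genes around the members were followed as 3 lists, chosen with results of these data known. Of 15 type I interferon genes such as Isg15, Ifit1 and Rsad2, 14 were in the table. They include Irf7, which the IRF3/7 tumours also express from a vector. Transcripts of the vector and of the cells' own gene were not told apart. All 14 were called higher in IRF3/7 over both sides (median log2 ratio 5.54), 1 in COX2i (0.43) and 13 in COX2i + 5-AZA (2.30), each against CTRL, where the medians of all genes were -0.55, 0.01 and -0.16. Within monocytes the counts were 7 higher in IRF3/7, 5 lower in COX2i and 6 lower in COX2i + 5-AZA, where 5% of all genes were higher in IRF3/7 and 3.87% and 12.7% were lower in the other 2. Within macrophages they were 14 higher in IRF3/7, 0 in COX2i and 13 higher in COX2i + 5-AZA, where 8.36%, 1.85% and 4.25% of all genes were higher. Monocytes over macrophages, all 14 were higher in CTRL, 6 in IRF3/7, 13 in COX2i and 12 in COX2i + 5-AZA, against 12.3%, 7.26%, 7.56% and 4.08% of all genes. Of 15 interferon gamma genes such as Cxcl9 and Gbp2, 15 were higher in IRF3/7, 8 in COX2i and 15 in COX2i + 5-AZA over both sides, against 9.16%, 1.93% and 5.65% of all genes. Within macrophages the counts were 15, 7 and 15 higher, against the shares of all genes given above for macrophages. Within monocytes they were 2 higher and 1 lower in IRF3/7 (median log2 ratio 0.05), 6 higher in COX2i (0.89) and 7 higher in COX2i + 5-AZA (0.97), where 5%, 3.88% and 4.38% of all genes were higher and 16.9% were lower in IRF3/7. The Irf7 level in macrophages was 55.5 CPM in CTRL, 2306 in IRF3/7, 68.0 in COX2i and 257 in COX2i + 5-AZA, and the Ms4a4c level of macrophages had the same order over the 4 libraries. The IRF3/7 value of Irf7 can include vector transcripts, and a link between these genes was not tested.

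Of 8 partners of TREM2 and Dectin-1 (their adaptors, kinases and shedding proteases), 7 were in the table. Trem2 was the member of this list that passed 2-fold between monocytes and macrophages, lower in monocytes by a log2 ratio of -1.17 in IRF3/7, -1.23 in COX2i and -1.02 in COX2i + 5-AZA, and -0.44 in CTRL. Over both sides it was lower than CTRL by -2.74 in IRF3/7 and -1.04 in COX2i + 5-AZA, and by -0.38 in COX2i. In these comparisons with CTRL, 2 of the 7 were called lower in IRF3/7, 0 in COX2i and 1 in COX2i + 5-AZA, where 32.2%, 4.7% and 11.3% of all genes were lower, so that these counts are near the background. In each of them 0 were called higher. The other one called in IRF3/7 was Adam10, a protease that sheds TREM2, at -1.57 (-1.66 to -1.48). Tyrobp, the adaptor of TREM2, stayed within 2-fold in each of these comparisons.

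Of the other Ms4a genes in the table, Ms4a4b was highest in NK cells, at 1554 CPM in IRF3/7, 721 in COX2i and 777 in COX2i + 5-AZA, with 26 UMIs in the 11 CTRL NK cells. In monocytes it was at 11.5 CPM in CTRL, 116 in IRF3/7, 9.34 in COX2i and 17.8 in COX2i + 5-AZA, highest where Ms4a4c, with which it shares the stretch printed above, was highest. Ms4a1 had at most 6 UMIs in the monocytes and macrophages of a library, and Ms4a4d at most 38. Tmem176a and Tmem176b, which belong to the same fold, followed other classes. Tmem176b was at 482 CPM in CTRL Macro and 217 CPM in COX2i + 5-AZA Macro, at 404 CPM in IRF3/7 and 378 CPM in COX2i + 5-AZA cells of the class DC3, and at 18.9 to 184 CPM in macrophages as a whole.

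The genes most like each member were found by Pearson's r of log2(CPM + 1) over 40 profiles of a class in a library with at least 50 cells. The profiles share libraries and depth, so r is a description. For Ms4a4c they were Ifi209 (0.94), Slfn8 (0.94) and Slfn1 (0.92), all known as interferon-induced genes. For Ms4a7 they were Apoe (0.95), Selenop (0.93) and Lgmn (0.93), and for Ms4a14 Selenop (0.92), Apoe (0.90) and Stab1 (0.90). Apoe encodes a lipid carrier, Lgmn a lysosomal protease and Stab1 a scavenger receptor. For Ms4a8a they were C3 (0.88), F10 (0.87) and Arhgef37 (0.86), of which C3 encodes the central complement protein and F10 a coagulation factor. Among the genes most like Ms4a4a were Rab5c (0.94) and Apoc2 (0.92), and among those most like Ms4a6d were Tlr8 (0.94) and Lrrc25 (0.94). Ms4a6b and Ms4a6c both led with the Fc receptor gene Fcgr1, at 0.94 and 0.96, and the lectin gene Clec4a3, at 0.92 and 0.96.

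Among the members, Ms4a6b and Ms4a6c were most alike, with r of 0.96, followed by Ms4a6c and Ms4a6d at 0.95 and the neighbours Ms4a7 and Ms4a14 at 0.95. Ms4a4c and Ms4a8a were at 0.77. Ms4a4c was near 0 with Ms4a7, at 0.06, and with Ms4a14, at -0.06. Over the 23 monocyte and macrophage profiles alone, Ms4a7 and Ms4a14 were at 0.95, Ms4a6b and Ms4a6c at 0.97 and Ms4a6c and Ms4a6d at 0.77, while Ms4a4c and Ms4a7 were at -0.16, and Ms4a7 and Ms4a8a at -0.29.

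**Figure D5:**
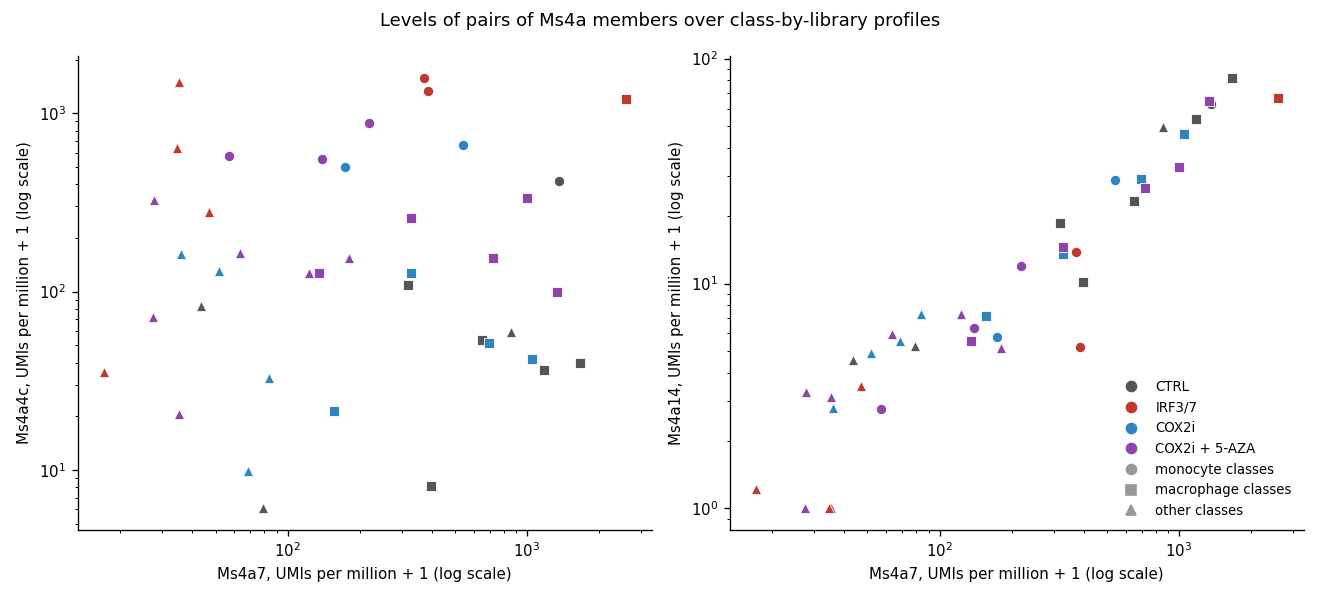
Levels (CPM + 1, log axes) of Ms4a7 against Ms4a4c in the left panel and of Ms4a7 against Ms4a14 in the right panel, 1 point for each of the 40 class profiles, marked by monocytes, macrophages and other cells. Ms4a7 and Ms4a14 lie along a line (r of 0.95), while Ms4a7 and Ms4a4c do not (r of 0.06), and the IRF3/7 TAM_H2Ab1 profile is high for both.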

How the data were processed

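CD45+ live cells of 4 libraries, 1 per group, were assayed with fixed-RNA probes (Chromium Flex, mm10 probe set, libraries multiplexed by probe barcode). The authors counted UMIs with Cell Ranger 7.1.0 (per the submitters' processing notes), removed cells with few genes or a high mitochondrial or ribosomal share and the genes of those groups, integrated the libraries with other experiments of the study and named 17 classes. They deposited raw UMI counts of 12584 genes in 34447 cells. No column of sample values was unmatched (0). Totals per library were 26356819 to 78722763 UMIs.

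Counts were summed over the cells of a class, of monocytes or of macrophages in each library and scaled to equal totals (CPM) for classes with at least 50 cells. Levels carry exact Poisson and shares exact Clopper-Pearson 95% intervals, and log2 ratios exact conditional intervals, all for counting error only. With 1 library per group no test was made. A call was 2-fold among genes that held 20 or more UMIs over both sides. The intervals were run on simulated counts that held counting error alone. That run checks the code only and says nothing of variation between cells, tumours or libraries. A count of 0 was read as up to 3 counts. Doublets were treated only by an alternative without cells above 2 times the median UMIs of their class and library. Python 3.11.15, NumPy 2.4.6, SciPy 1.17.1, pandas 2.3.3, scanpy 1.11.5 and matplotlib 3.10.9 were used. The rebuilt clusters used 3000 variable genes, 40 components, 15 neighbours and a Leiden resolution of 1, without 40 genes (Ms4a and interferon lists), and each cluster took the side that most of its cells had in the authors' classes. The libraries were not integrated for the rebuilt clusters, unlike for the authors' classes. In all 19 alternatives were tried.

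The text names the 8 members, the other Ms4a genes, Tmem176a and Tmem176b, the list genes and, for each member, the 3 genes with the highest r among genes that reach 50 CPM in a profile, and some items under these rules are not reported here. The members and lists were chosen with earlier results of these data known. The classes were made from expression and may have used the members. Promoters were from RefSeq and positions from GENCODE, both on GRCm38, the build of the probe set (mm10). Protein sequences were not used here, and 1 member, Ms4a6d, had no promoter entry.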

Additional observations from a re-analysis of the deposited data

Results flagged for a closer look

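In 4 cases a member moved in opposite directions in 2 sets of cells or libraries under the same contrast, with counting intervals on opposite sides of 0 and a difference of at least 1 between the log2 ratios. Of the libraries, only the 2 farthest apart were taken for a member. With 1 library per group these differences were not tested.

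Ms4a4a was higher in monocytes than in macrophages of IRF3/7, at a log2 ratio of 0.81, and lower in those of COX2i + 5-AZA, at -0.61, a difference of 1.42. The IRF3/7 value was 0.09 with the rebuilt clusters. Ms4a7 in IRF3/7 against CTRL was at -1.45 within monocytes and 0.99 within macrophages, a difference of -2.44. The first of these Ms4a7 values rests on the 93 CTRL Infl_Mono cells, whose macrophage markers summed to 50867 CPM, and was 0.75 without Infl_Mono, and the second rests on TAM_H2Ab1 and was -0.48 without it. The part of the class boundaries in both values was not tested.

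In COX2i + 5-AZA against COX2i, Ms4a7 was at -0.83 within monocytes and 0.25 within macrophages, a difference of -1.08, and its neighbour Ms4a14 was at -0.79 and 0.24, a difference of -1.04. With the rebuilt clusters the monocyte values were -0.05 for Ms4a7 and 0.39 for Ms4a14.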

How the results depend on the processing

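Of 19 alternatives, 12 were run on the ratios of members, each where it applies. The 42 member ratios past 2-fold had 393 alternative values, of which 389 kept their sign and 362 stayed past 2-fold. The 4 that reversed were Ms4a14 in IRF3/7 against CTRL over both sides with the CTRL class mix (0.94, from -1.51), Ms4a7 in the same libraries within monocytes without Infl_Mono (0.75) and with the rebuilt clusters (1.65), and Ms4a14 within monocytes with the rebuilt clusters (1.50). With the rebuilt clusters, 50 of the 93 CTRL Infl_Mono cells fell on the macrophage side and 366 of the 385 IRF3/7 TAM_H2Ab1 cells on the monocyte side. The cause of the changes given here was not tested. Over all 128 member ratios, called or not, the sign changed for 13 with the rebuilt clusters, and for 7 of 64 without Infl_Mono, 5 of 32 with the class mix of the second-named library and 2 of 64 without TAM_H2Ab1. No paired analysis was possible because each group has 1 library. The alternative without shared droplet barcodes was chosen after seeing the data.

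Of the counts of members past 2-fold, 351 alternative values stayed within 1.5 times and 41 did not. For monocytes against macrophages, the count lower in CTRL was 2 (from 0) without Infl_Mono and with the rebuilt clusters. In IRF3/7 the count higher (1) was 2 with median-of-ratios scaling, 4 without TAM_H2Ab1 and 2 with the rebuilt clusters, and the count lower (2) was 1 with the rebuilt clusters. In COX2i the count lower (2) was 1 in cells with more than 2000 genes and 1 where the interval had to lie past 2-fold. Over both sides, IRF3/7 against CTRL had 2 higher (from 4) and 0 lower (from 1) with the CTRL class mix. COX2i against CTRL had 2 lower (from 1) without high-UMI cells, after thinning to 1500 UMIs and without shared droplet barcodes. COX2i + 5-AZA against CTRL (2 higher, 1 lower) had 0 lower with median-of-ratios scaling, 2 lower after thinning and by the mean over cells, and 1 higher and 0 lower with the CTRL class mix.

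Within monocytes, IRF3/7 against CTRL (2 lower) had 1 lower without high-UMI cells and after thinning, and 0 by the mean over cells, without Infl_Mono and with the rebuilt clusters. COX2i against CTRL (3 lower) had 1 lower without Infl_Mono. COX2i + 5-AZA against CTRL (2 lower, 0 higher) had 1 higher in cells with more than 2000 genes, and 1 lower without Infl_Mono and at a minimum of 200 UMIs, and 0 lower with the rebuilt clusters. COX2i + 5-AZA against COX2i (0 and 0) had 1 higher with median-of-ratios scaling, after thinning, without shared droplet barcodes, without Infl_Mono and with the rebuilt clusters, and 1 higher and 2 lower in cells with more than 2000 genes. Within macrophages, IRF3/7 against CTRL (0 lower) had 1 lower without high-UMI cells, after thinning, without TAM_H2Ab1 and without TAM_cycling. COX2i against CTRL (2 lower) had 1 lower and COX2i + 5-AZA against CTRL (1 higher) had 2 higher in cells with more than 2000 genes. Depth limits Ms4a8a and Ms4a14 most, with 62 and 30 UMIs in CTRL monocytes.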

Other observations

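The monocyte classes of COX2i + 5-AZA differed among themselves in the levels of some members. In Monocyte_3, a class of 280 cells there, Ms4a7 was at 56.2 CPM and Ms4a8a at 77.3 CPM, each the lowest of the 3 monocyte classes of that library, and Ms4a14 had 1 UMI there, too few to rank. In the same class Ms4a4c was at 572 CPM and Ms4a6b at 860.5 CPM, against 550.3 and 739 CPM in Monocyte_1.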
